A study of Rattus norvegicus with 4 samples.

Results

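Rat hepatic stellate cells that had been transfected with an siRNA against endoglin were compared with untreated cells over all 4 arrays of the series, none of which was left out. Stellate cells are the vitamin A-storing pericytes of the liver sinusoid. The groups were untreated cells (2 arrays) and cells transfected with siRNA targeting endoglin (2 arrays), and in each group 1 array held RNA of 1 animal and 1 array RNA pooled from 3 animals. These RNAs carried the dye Cy5. Every array also held, in Cy3, RNA of cells transfected with a control siRNA, from 1 animal or from a pool of 3 animals to match. All values are thus ratios to control siRNA cells, and there was no dye swap. A dye effect of a probe therefore cannot be told apart from a distance to the control siRNA cells. It cancels in the difference between the groups. The value for a gene was the log2 ratio of Cy5 to Cy3 on the endoglin siRNA array minus that on the untreated array of the same RNA source, which gives 2 differences, 1 from the single animals and 1 from the pools. Whether both arrays of a source came from the same animals or shared a control RNA is unstated in the sources used here, as are the strain, age, siRNA sequence, days in culture and time after transfection. Untreated cells had met neither siRNA nor transfection, so this difference holds the effect of transfection together with that of losing endoglin, and the 2 cannot be told apart by the difference alone.

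Endoglin is a membrane glycoprotein that binds TGF-beta and BMP ligands together with their type I and type II kinase receptors. It is best known from endothelial cells, and stellate cells and other mesenchymal cells carry it too. TGF-beta acting through Smad2 and Smad3 drives stellate cells in injured liver to become contractile myofibroblasts that deposit collagen, whereas BMP ligands act mainly through Smad1 and Smad5 and induce the Id genes.

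Depending on the array, 65.7% to 93.3% of gene spots exceeded background clearly in Cy5 and 61.9% to 87.2% in Cy3, with the pooled untreated array highest in both channels, and no spot was saturated. The 4 arrays shared 1 slide and 1 scan. On the pooled arrays, 6 spots (untreated) and 4 spots (endoglin siRNA) read more than 100 units below their local background. They widened the fitted background and narrowed the ratios of the pools. With them the SD of the fitted Cy5 background was 653 (untreated) and 296 (endoglin siRNA), and without them 3.78 and 0.771. Differences below come from the fit with all spots unless another setting is named. Values without these spots are given for part of the genes only. The pool difference of Akr1c15 was 0.87 with and 2.01 without these spots, and that of Coro1a -1.63 and -2.61. That of A2m shrank, from -2.83 to -2.64. The deposited value table has the opposite sign on both untreated arrays, and the direction below follows the dyes named in the labels. The number of arrays limits the precision, and nothing says which arrays came from separate cultures. The p-values therefore speak only for these samples. The variance behind them was drawn mostly from all genes (1 residual and 7.43 prior degrees of freedom) and is not the spread of the gene alone.

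Of 25507 genes tested, 267 differed between endoglin siRNA and untreated cells at an adjusted p under 0.05 (limma with the RNA source as a block, Benjamini-Hochberg), or 1.05% of all genes. A total of 129 genes (0.506%) were higher and 138 (0.541%) lower in endoglin siRNA cells. Among them, 12 of the higher and 37 of the lower genes differed by at least 2-fold, and the median size over the 267 genes was 0.71 on the log2 scale. Both RNA sources gave the same sign for all 267 genes, a condition that the test itself favours. Across all genes the differences of the 2 sources correlated with r = 0.439, a description over genes that are not independent. Over all genes the SD of the differences was 0.222 for the single animals and 0.173 for the pools, or 0.26 for the pools without the disturbed spots. When the disturbed spots were left out of the background fit, the count was 917 or 3.6% (409 higher, 1.6%, and 508 lower, 1.99%), with 266 of the 267 among them. When the RNA source was left out of the model, it was 22 or 0.0863% (9 higher, 0.0353%, and 13 lower, 0.051%). A difference of at least 2-fold in both sources was found for 24 genes or 0.0941%, with 9 higher (0.0353%) and 15 lower (0.0588%). With the log ratios of Feature Extraction, the deposited values, median centring or scaling between arrays no gene passed in limma (2964, 2967, 81 and 216 genes at an unadjusted p under 0.05), so each call below is one of the blocked fit on loess-normalized ratios. Of the 267 genes, all 267 had the same sign with the Feature Extraction ratios and in the Cy5 channel alone, and 206 had it with median centring. These settings use the same spots by which the 267 were chosen, so equal signs were favoured from the start. Median centring leaves a trend with brightness: the median difference of the brightest 5091 genes was 0.99 with it and 0.03 with loess, and that of all genes was 0.26 and 0.02.

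**Figure D1:**
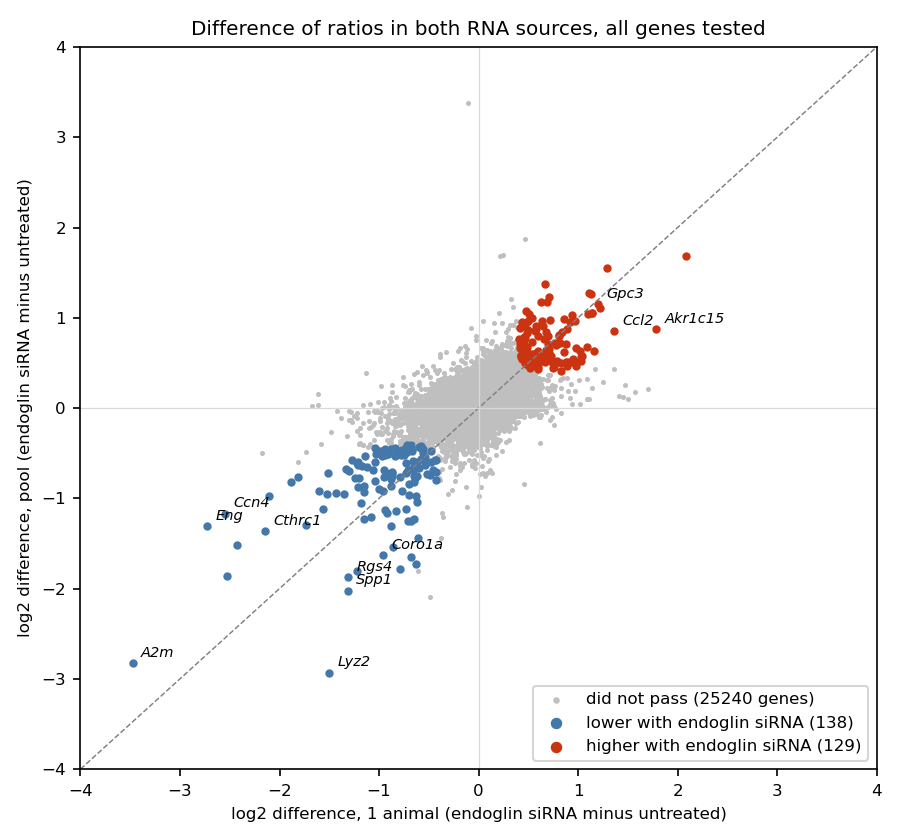
Difference of log2 ratios (endoglin siRNA minus untreated) for the single animals (x axis) and the pools (y axis), 1 point per gene; the 138 lower and 129 higher genes that passed are coloured and the dashed line marks equal differences. A2m lies lowest in the single animals, and Eng lies further from 0 in the single animals (-2.73) than in the pools (-1.31).

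Endoglin mRNA itself was lower in the cells given its siRNA. Here and below, the values of a group are given for 1 animal first and for the pool second. Each ± is limma's moderated SE, which draws its variance mostly from all genes and is not the spread of the 2 differences. Eng had log2 ratios of -0.36 and -0.42 on the untreated and -3.08 and -1.72 on the endoglin siRNA arrays. All 4 values lay below 0, and the 2 groups did not overlap. The difference was -2.02 ± 0.26 (moderated SE, n = 2 differences, -2.73 and -1.31), or 4.05-fold less Eng RNA (limma, adjusted p = 0.0123). The call ended without the block at the same difference (adjusted p = 0.179), and the adjusted p ranged from 0.000287 to 0.802 over all alternatives. In the Cy5 channel alone the difference was -2.28, and with median centring -1.12.

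The deepest difference belonged to A2m, which encodes alpha-2-macroglobulin, a secreted trap for proteases that also binds growth factors. A2m had log2 ratios of -0.31 and 0.37 on the untreated and -3.79 and -2.46 on the endoglin siRNA arrays. It lay near the control siRNA cells in untreated cells and far below them in endoglin siRNA cells, and fell by 3.15 ± 0.14 (8.88-fold, adjusted p = 0.000236, limma). Part of this came from the control channel, in which A2m was higher on the endoglin siRNA array than on the untreated array by 0.32 (1 animal) and 1.01 (pool); in Cy5 alone the difference was -2.48. Ccn4 (Wisp1, a matricellular protein of the CCN family) had ratios of -0.21 and -0.36 on the untreated and -2.76 and -1.53 on the endoglin siRNA arrays, and differed by -1.86 ± 0.25. Cthrc1, a secreted protein of collagen-making cells, had ratios of -0.20 and 0.04 on the untreated and -2.34 and -1.32 on the endoglin siRNA arrays, and differed by -1.75 ± 0.16. For both genes the untreated arrays sat near 0 and the endoglin siRNA arrays far below it, further in the single animal than in the pool.

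Other secreted and regulatory genes fell as well. Serpinf1 encodes the anti-angiogenic factor PEDF, and its ratios were 0.19 and 0.40 on the untreated and -1.53 and -0.89 on the endoglin siRNA arrays (difference -1.51 ± 0.12). Smoc2, a calcium-binding matricellular protein, moved from 0.51 and 0.71 in untreated cells to -1.05 and -0.42 in endoglin siRNA cells (difference -1.34 ± 0.12). Rgs4 and Rgs5, regulators that shorten G-protein signalling and are typical of pericytes, both fell. Rgs4 had ratios of 0.39 and 0.53 on the untreated and -0.91 and -1.35 on the endoglin siRNA arrays, a difference of -1.59 ± 0.13, and Rgs5 differed by -1.26 ± 0.15. A second probe gave -0.94 for Smoc2. In Cy5 alone the differences shrank to -1.04 for Rgs4 and -0.84 for Smoc2. Hsp90ab1, a cytosolic chaperone, was the 1 gene to pass among 17 heat shock genes measured (5.88%, against 1.05% of all genes). Its ratios were -0.27 and -0.29 on the untreated and -1.42 and -1.52 on the endoglin siRNA arrays, close together within each group. It fell by 1.19 ± 0.09 (adjusted p = 0.00196, limma, second probe -0.77).

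**Figure D2:**
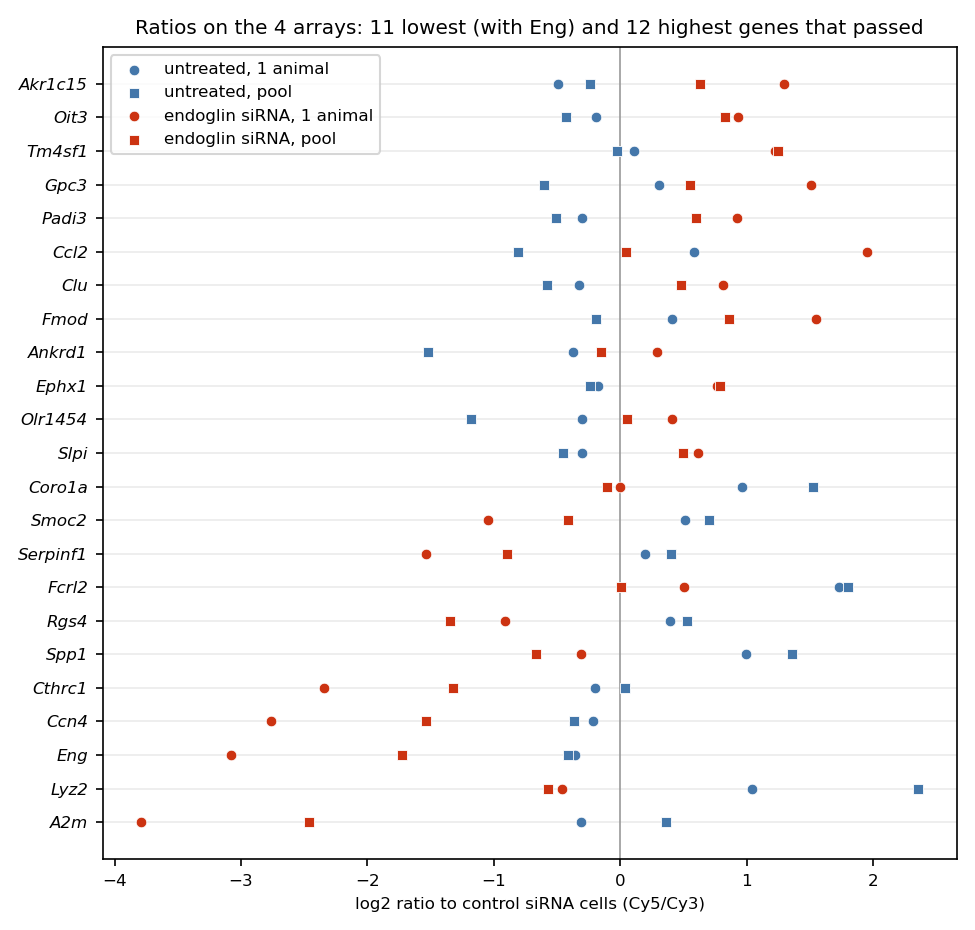
Log2 ratio to control siRNA cells (x axis) on each of the 4 arrays for the 11 genes with the lowest and the 12 with the highest difference among genes with a symbol that passed; Eng is among the lowest. Blue marks untreated and red endoglin siRNA cells, circles 1 animal and squares the pool; Ccl2 is a gene whose untreated single animal (0.59) lies above the pooled endoglin siRNA array (0.05), and only differences within a source were tested.

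Matrix genes were more often lower than higher. Of 42 collagens and matrix glycoproteins measured, 9 fell and 2 rose, against 0.541% and 0.506% of all genes. The 9 were Spp1, Ccn4, Cthrc1, Fbn1 (fibrillin-1 of microfibrils), Col6a3, Col1a1 (the main chain of type I collagen), Thbs2 (thrombospondin-2), Emilin1 (an elastic fibre glycoprotein) and Fn1 (fibronectin), and the 2 that rose were Fmod and Omd, small leucine-rich proteoglycans. The list's median difference was -0.28 beside 0.02 over all genes, and it turned to 0.65 with median centring, where the brightest 5091 genes had 0.99. Col1a1 had ratios of -0.25 and -0.14 on the untreated and -0.96 and -0.82 on the endoglin siRNA arrays, and differed by -0.70 ± 0.09 (adjusted p = 0.0113, limma; other probes -0.49 and -0.58). Fbn1 had ratios of 0.15 and 0.32 on the untreated and -1.09 and -0.45 on the endoglin siRNA arrays, and differed by -1.01 ± 0.12, whereas Fn1 differed by -0.51 ± 0.09 (second probe -0.48). In Cy5 alone Col1a1 differed by only -0.36. Not every fibrillar collagen gave such values: Col3a1, named after its values were seen, had -0.34 ± 0.17 and did not pass (adjusted p = 0.51, limma).

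Fmod, fibromodulin, binds type I collagen and TGF-beta. Its ratios were 0.41 and -0.19 on the untreated and 1.55 and 0.86 on the endoglin siRNA arrays, and it rose by 1.09 ± 0.09 (2.13-fold, adjusted p = 0.00205, limma). Omd, osteomodulin, had ratios of 0.39 and 0.25 on the untreated and 1.42 and 0.82 on the endoglin siRNA arrays, and rose by 0.80 ± 0.12, or 1.28 with the ratios of Feature Extraction. Both stood above control siRNA cells on both endoglin siRNA arrays.

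Enzymes that cut or cross-link matrix were also among the genes that fell. Of 32 proteases, inhibitors and cross-linking enzymes measured, 6 fell and 0 rose (18.8%, against 1.05% of all genes). The 6 were A2m, Mmp12 (macrophage metalloelastase), Lox and Loxl1 (lysyl oxidases that cross-link collagen and elastin), Mmp3 (stromelysin-1) and Mmp23. The list's median was -0.22, and 0.50 with median centring. Lox had ratios of 0.19 and 0.48 on the untreated and -0.96 and -0.38 on the endoglin siRNA arrays, and fell by 1.01 ± 0.10 (adjusted p = 0.00447, limma; second probe -0.75). Loxl1 differed by -0.77 ± 0.09 with a second probe at -0.61, and Mmp3 by -0.67 ± 0.09. With median centring the signs of Lox (0.07), Loxl1 (0.33), Col1a1 (0.41) and Fn1 (0.55) turned, each staying below the 0.99 of the brightest 5091 genes. Timp1, an inhibitor of metalloproteinases that was named after its values were seen, had -0.63 ± 0.14 and did not pass (adjusted p = 0.0984).

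**Figure D3:**
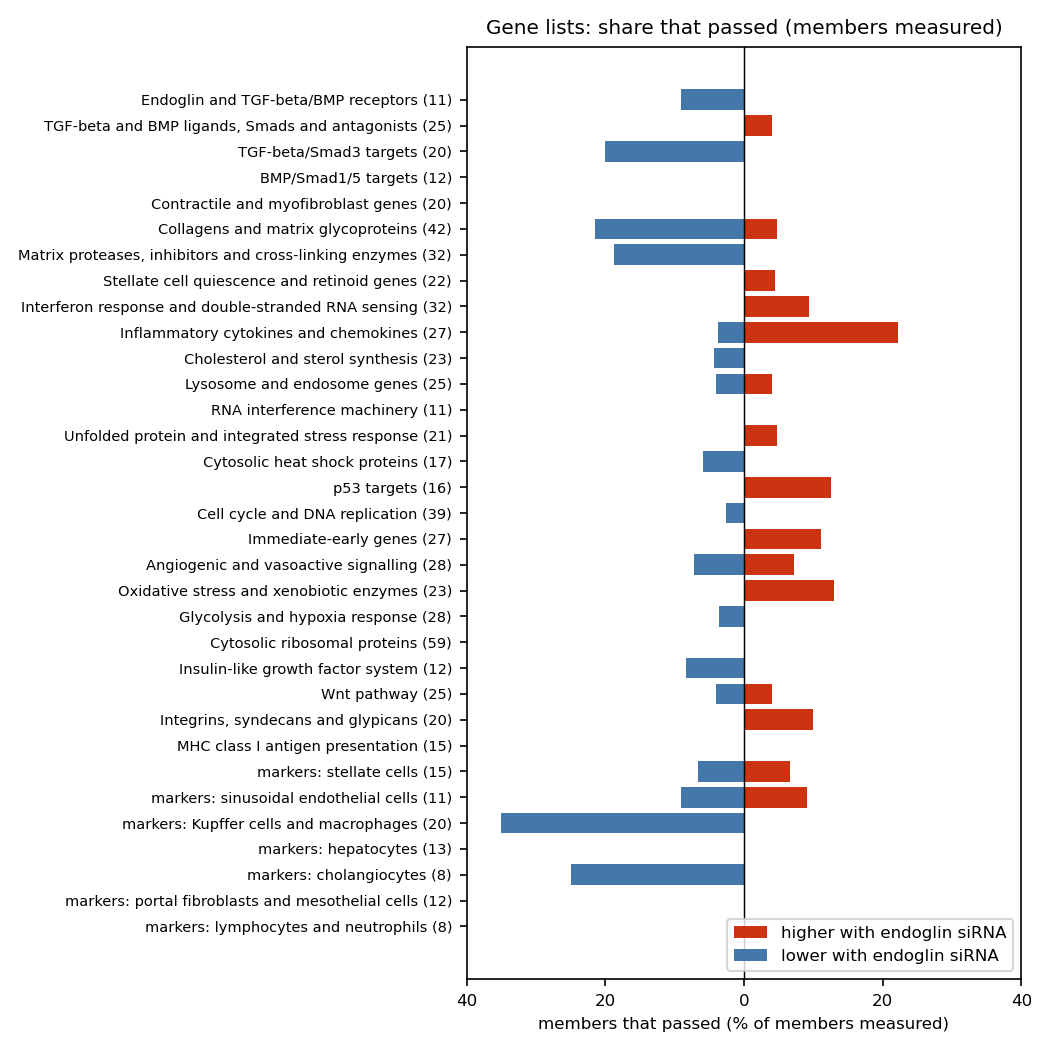
Share of measured members that passed (x axis, percent) in each of the 33 gene lists, to the right for genes higher and to the left for genes lower in endoglin siRNA cells; the number measured follows each name. The macrophage markers have the largest share, with 7 of 20 lower, and 9 of 42 collagens and matrix glycoproteins were lower. Over all genes tested, 0.541% were lower and 0.506% higher.

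Among receptors, ligands, Smads and antagonists of the pathway to which endoglin belongs, Eng and Tgfb2 passed in the fit with all spots. Among 11 receptors of the family measured, only Eng did (9.09%, against 1.05% of all genes), and it is the target of the siRNA. Acvrl1 (ALK1, the type I receptor endoglin partners in endothelium) had ratios of 0.16 and -0.27 on the untreated and -1.26 and -0.30 on the endoglin siRNA arrays; the single animal was low and the pool was not, and the difference of -0.73 ± 0.26 did not pass (adjusted p = 0.304, limma), though it passed without the disturbed spots (-1.04, adjusted p = 0.00698). Of the other receptors, Tgfbr1, Tgfbr2 and Bmpr2 had differences of -0.07, -0.11 and 0.08. Of 25 ligands, Smads and antagonists, 1 rose (4%), the ligand gene Tgfb2. Its ratios were -0.16 and -0.43 on the untreated and 0.37 and 0.16 on the endoglin siRNA arrays, with a difference of 0.56 ± 0.09. Without the disturbed spots 4 of the 25 rose (Tgfb2, the ligand genes Bmp2 and Bmp4, and the BMP antagonist Nog) and 2 fell (the ligand gene Bmp6 and the antagonist Chrd), with differences between -0.62 and 0.88.

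Of 20 TGF-beta/Smad3 targets, 4 fell and 0 rose (20%, against 1.05% of all genes): Ltbp2, Lox, Col1a1 and Fn1, 3 of which the matrix and protease lists also hold. Ltbp2, a microfibril protein related to the carriers of latent TGF-beta, had ratios of 0.17 and 0.10 on the untreated and -1.26 and -0.84 on the endoglin siRNA arrays. It fell by 1.19 ± 0.12 (adjusted p = 0.00509, limma), or by 1.83 in Cy5 alone. The list's median was -0.25 (0.48 with median centring). Other well-known targets, named after their values were seen, were near 0: Ccn2 (CTGF) had -0.02 ± 0.10 and Smad7 0.01 ± 0.10, and neither passed. Of 12 BMP/Smad1/5 targets 0 passed; the largest values were those of Id1 (0.76 ± 0.17, adjusted p = 0.104) and Nog (0.42 ± 0.09, adjusted p = 0.0791). Both rose without the disturbed spots (0.87 with an adjusted p of 0.0474, and 0.88 with one of 0.0242, limma). Id1 was higher in both sources, with ratios of -0.13 and -0.76 on the untreated and 0.19 and 0.44 on the endoglin siRNA arrays.

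No contractile gene passed in the fit with all spots. Of 20 contractile and myofibroblast genes measured, 0 were called and the median was -0.11 (0.81 with median centring). The largest differences were those of Flnc (filamin C, -0.79 ± 0.30, adjusted p = 0.342) and Myh11 (smooth muscle myosin, -0.65 ± 0.16, adjusted p = 0.126, second probe 0.13). Flnc had ratios of -0.73 and -0.75 on the untreated and -2.34 and -0.72 on the endoglin siRNA arrays. In this fit 1 array alone stood apart. Tagln and Myl9, named after their values were seen, had -0.35 ± 0.13 and -0.17 ± 0.12. Without the disturbed spots 3 of the 20 fell, Flnc and Myh11 among them. Flnc then differed by -1.61 for 1 animal and -0.67 for the pool (adjusted p = 0.0088, limma). Myh11 differed by -1.03 and -0.60 (adjusted p = 0.00597, limma). Acta2, the usual marker of myofibroblasts, was not analysed here because no probe carried that name.

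Of the 15 stellate cell markers measured, 14 or 15 were well above background in Cy5 on each array; most markers of other liver cells were so too, so this does not set the cells apart from them. Among the 15, Col1a1 fell and Tcf21 rose (13.3%, against 1.05% of all genes). Tcf21, a transcription factor of quiescent stellate cells, had ratios of -0.14 and -0.13 on the untreated and 0.29 and 0.61 on the endoglin siRNA arrays, and rose by 0.59 ± 0.10. It was the 1 gene to pass among 22 quiescence and retinoid genes (4.55%). Desmin (Des, 0.15), Lrat (the enzyme that stores retinol as esters, -0.10) and Pdgfrb (-0.06), named after their values were seen, did not pass.

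Macrophage markers were lower in endoglin siRNA cells. Kupffer cells are the resident macrophages of the liver sinusoid and lie next to stellate cells. Of 20 markers measured, 7 fell and 0 rose (35.0%, against 0.541% of all genes lower): Lyz2 (lysozyme), Laptm5, Aif1, C1qa and C1qb (complement C1q chains), Cd68 and Cd74. The list's median difference was -0.51, but -1.20 with the ratios of Feature Extraction and -0.40 with median centring, and 19 of the 20 were below 0 in both sources. Without the disturbed spots 13 of the 20 fell; without the block 2 did.

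Lyz2 had log2 ratios of 1.04 and 2.36 on the untreated and -0.46 and -0.57 on the endoglin siRNA arrays. Untreated cells stood above control siRNA cells and endoglin siRNA cells somewhat below them, and the difference was -2.22 ± 0.26 (4.65-fold, adjusted p = 0.00876, limma). Cd68, a lysosomal glycoprotein, had ratios of 0.76 and 1.21 on the untreated and 0.08 and -0.04 on the endoglin siRNA arrays (difference -0.97 ± 0.13). C1qa had ratios of 1.03 and 1.29 on the untreated and 0.15 and -0.02 on the endoglin siRNA arrays (difference -1.09 ± 0.11, second probe -1.12). On Cd68 and C1qa the endoglin siRNA arrays lay close to 0, the level of the control siRNA cells, and on all of these genes both untreated arrays lay well above it. Laptm5 (a lysosomal protein of blood cells) differed by -1.29 ± 0.19, Aif1 by -1.17 ± 0.19 and Cd74 (the MHC class II invariant chain) by -0.95 ± 0.09. 3 markers moved by over 1.5 times with another signal: Aif1 to -1.88 and Cd74 to -1.86 with the ratios of Feature Extraction, and C1qa to -1.96 in Cy5 alone. Cd163 (-0.04) and Cd14 (0.05), chosen after their values were seen, were near 0.

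The summed normalized signal of the 20 markers was 93710 units in untreated cells and 51360 in endoglin siRNA cells of 1 animal, and 32090 and 13570 in the pools. In the Cy3 channel of the same arrays, which held control siRNA cells, it was 50150 and 47980 for 1 animal and 13480 and 11660 for the pools. Without Lyz2, the member that changed most, the Cy5 sum of the other 19 was 69830 and 42820 for 1 animal and 21750 and 12550 for the pools. The Cy3 sums were thus near the Cy5 sum of the endoglin siRNA cells in each source and below that of the untreated cells. Without a dye swap, a dye effect of the probes cannot be told apart from the level of the control siRNA cells. The stellate cell markers summed higher in Cy5 than in Cy3 on all 4 arrays, such as 597100 against 456800 on the endoglin siRNA array of 1 animal. All 20 markers were well above background in Cy5 on the other 3 arrays and 14 on the pooled endoglin siRNA array. In bulk RNA, fewer macrophages and less of these RNAs per macrophage cannot be told apart.

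**Figure D4:**
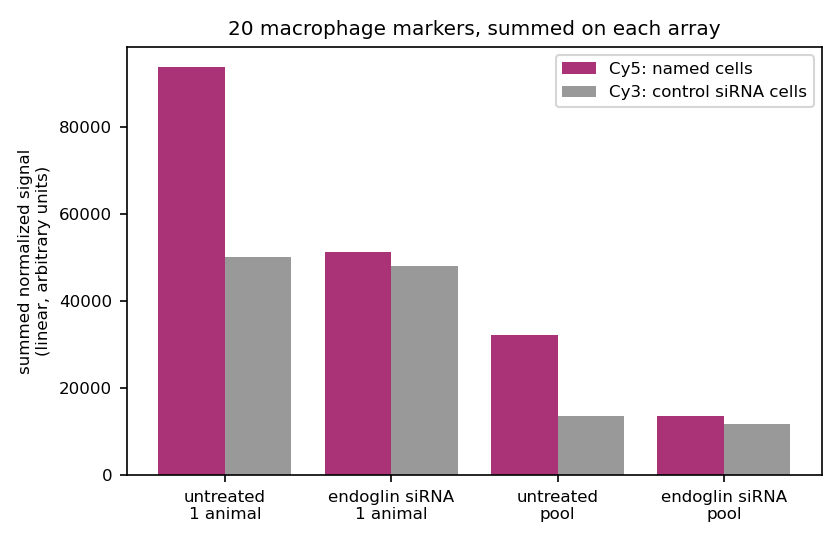
Sum of the normalized signals of 20 Kupffer cell and macrophage markers (y axis, linear, arbitrary units) on each array, with Cy5 (untreated or endoglin siRNA cells) beside Cy3 (control siRNA cells). The Cy5 bar stands above the Cy3 bar on both untreated arrays (93710 against 50150, and 32090 against 13480), and the bars are of nearly equal height on both endoglin siRNA arrays. Without a dye swap, the height of Cy5 beside Cy3 also holds any dye effect.

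Leukocyte genes outside the list, chosen by their values or named after these were seen, had the same pattern. Coro1a (coronin-1A, an actin regulator of blood cells) had ratios of 0.96 and 1.53 on the untreated and 0.00 and -0.10 on the endoglin siRNA arrays, and fell by 1.29 ± 0.15 (-2.12 with the ratios of Feature Extraction). Fcrl2, an Fc receptor-like gene, had 1.73 and 1.81 on the untreated and 0.51 and 0.00 on the endoglin siRNA arrays (difference -1.51 ± 0.13). Ctss (cathepsin S, the 1 lysosomal gene of 25 that fell) had 1.19 and 1.17 on the untreated and 0.24 and 0.03 on the endoglin siRNA arrays (difference -1.04 ± 0.09). The endoglin siRNA arrays were near or above 0 and the untreated arrays near or above 1 for all of them. Mmp12 (-1.20 ± 0.15), Trem2 (-1.18 ± 0.21), Fcgr1a (-0.94 ± 0.13), Itgb2 (-0.83 ± 0.11), C5ar1 (-0.70 ± 0.09) and RT1-Da (-0.86 ± 0.09) passed as well. With the ratios of Feature Extraction Mmp12 had -1.80, Fcgr1a -1.57, C5ar1 -1.78 and RT1-Da -1.75. Spp1, osteopontin, is made by macrophages as well as by stellate cells and bile duct cells, and its ratios of 1.00 and 1.36 on the untreated and -0.31 and -0.66 on the endoglin siRNA arrays (difference -1.67 ± 0.15) resembled those of Lyz2; the part of macrophages in the fall of Spp1, Mmp12 and the matrix list was not tested. The other 8 matrix genes that fell, Ccn4, Cthrc1, Fbn1, Col6a3, Col1a1, Thbs2, Emilin1 and Fn1, had untreated ratios between -0.36 and 0.32 on every array.

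PU.1, the lineage factor of macrophages, binds a core written GAGGAA, and this word was looked for on both strands of RefSeq promoter windows (250 bases before to 50 after the start, build GRCr8). It occurred in 27.5% of 27457 windows, and in 5 of the 6 windows found for the 7 macrophage markers that fell (Aif1 had none in the table). The windows of Lyz2, Laptm5 and Cd68 are shown because these genes fell together; capitals mark the word or its reverse complement, the strand is that of the gene, and a match is a description and no evidence of binding. They lie at chr7:54797962-54798261 (minus strand), chr5:148371630-148371929 (plus) and chr10:54882392-54882691 (minus).
Lyz2: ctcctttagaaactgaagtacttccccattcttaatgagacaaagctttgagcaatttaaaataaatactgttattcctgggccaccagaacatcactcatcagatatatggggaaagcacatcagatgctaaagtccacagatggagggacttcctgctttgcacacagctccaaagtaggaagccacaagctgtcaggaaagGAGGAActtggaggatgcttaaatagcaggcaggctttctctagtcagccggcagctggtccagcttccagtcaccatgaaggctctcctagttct
Laptm5: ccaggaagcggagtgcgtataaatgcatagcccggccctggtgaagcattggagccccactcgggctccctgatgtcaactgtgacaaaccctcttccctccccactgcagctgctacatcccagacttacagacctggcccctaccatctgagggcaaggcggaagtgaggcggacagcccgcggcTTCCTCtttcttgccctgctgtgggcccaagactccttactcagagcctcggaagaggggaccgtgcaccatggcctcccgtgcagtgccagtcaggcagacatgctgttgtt
Cd68: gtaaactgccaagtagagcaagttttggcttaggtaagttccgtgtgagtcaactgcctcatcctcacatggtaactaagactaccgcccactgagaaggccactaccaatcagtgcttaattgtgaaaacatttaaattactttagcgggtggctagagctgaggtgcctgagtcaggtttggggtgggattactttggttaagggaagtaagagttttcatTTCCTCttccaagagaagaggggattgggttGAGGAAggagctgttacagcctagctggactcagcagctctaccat
Counted from the start as position 1, with the base before it as -1, the matches begin at -46 in Lyz2, at -63 in Laptm5, and at -27 and 5 in Cd68. C1qa, which fell with them, had none.

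Enzymes of aldehyde, steroid and drug metabolism were among the genes that rose. Of 23 oxidative stress and xenobiotic genes measured, 3 rose and 0 fell (13%, against 1.05% of all genes). The 3 were Akr1c15 and Akr1b8 (aldo-keto reductases) and Sod3 (extracellular superoxide dismutase), and the list's median was 0.12. Akr1c15 had ratios of -0.49 and -0.24 on the untreated and 1.29 and 0.63 on the endoglin siRNA arrays; it was below the control siRNA cells in untreated cells and above them in endoglin siRNA cells, and rose by 1.33 ± 0.18 (2.51-fold, adjusted p = 0.0152, limma), or by 2.47 with the ratios of Feature Extraction. Akr1b8 had ratios of -0.06 and -0.21 on the untreated and 0.96 and 0.43 on the endoglin siRNA arrays (difference 0.83 ± 0.11). Ephx1, microsomal epoxide hydrolase, had -0.18 and -0.24 on the untreated and 0.76 and 0.79 on the endoglin siRNA arrays (difference 0.98 ± 0.09), with both sources close together. Ptgr1 (prostaglandin reductase, 0.88 ± 0.11, Cy5 alone 1.48), Aox1 (aldehyde oxidase, 0.85 ± 0.10) and Xdh (xanthine dehydrogenase, 0.67 ± 0.11), which no list held and which were named after their values were seen, passed too. Some classical targets of the factor Nrf2 on the list did not: Nqo1 had 0.33 ± 0.12, Hmox1 -0.02 ± 0.09 and Gclm 0.05 ± 0.09. Of the 23 members of the list, 15 were higher and 3 lower in both sources. The part of Nrf2 was not tested.

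The antioxidant response element, the site of Nrf2, has the core TGACNNNGC. On either strand it occurred in 12.2% of all promoter windows and in 1 of the 5 windows found for Akr1c15, Akr1b8, Ephx1, Aox1 and Xdh. That window, of Akr1c15 (chr17:71117908-71118207, minus strand, GRCr8), is shown because this gene rose most; capitals mark 2 matches, which begin at positions -140 and -69.
Akr1c15: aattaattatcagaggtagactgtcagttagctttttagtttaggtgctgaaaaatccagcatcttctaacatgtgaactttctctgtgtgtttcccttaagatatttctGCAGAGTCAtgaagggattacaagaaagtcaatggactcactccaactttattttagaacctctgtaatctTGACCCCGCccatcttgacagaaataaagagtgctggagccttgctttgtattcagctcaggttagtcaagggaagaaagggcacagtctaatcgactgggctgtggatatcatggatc

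Some chemokine and inflammatory signalling genes rose and Cxcl12 fell, while most of their list did not pass. Of 27 inflammatory genes measured, 6 rose and 1 fell (25.9%, against 1.05% of all genes), and the list's median was 0.11. Those that rose were Ccl2 and Ccl7 (monocyte attractants), Cxcl1 (a neutrophil attractant), Cx3cl1 (fractalkine), Csf1 (the growth factor of macrophages) and Nfkbia (the NF-kappaB inhibitor IkappaB-alpha). Ccl2 had ratios of 0.59 and -0.81 on the untreated and 1.95 and 0.05 on the endoglin siRNA arrays, and rose by 1.11 ± 0.12 (adjusted p = 0.00717, limma). The untreated single animal lay above the pooled endoglin siRNA array, so the groups overlap and the difference holds only within a source. Ccl7 differed by 0.81 ± 0.12 (1.04 for 1 animal and 0.58 for the pool) and Csf1 by 0.79 ± 0.09. Cx3cl1 had ratios of 0.55 and 0.29 on the untreated and 1.23 and 1.13 on the endoglin siRNA arrays (difference 0.76 ± 0.09), with no overlap. Cxcl1 rose by 0.88 ± 0.09, or by 1.39 with the ratios of Feature Extraction. In Cy5 alone its difference was -0.15 for 1 animal and 1.13 for the pool, so the sign turned in 1 source, in which the control channel differed by -1.04 between the arrays. Cxcl12, the homeostatic stromal chemokine, had ratios of 0.31 and 0.25 on the untreated and -0.61 and -0.91 on the endoglin siRNA arrays, and fell by 1.04 ± 0.10 (second probe -0.43, and 0.04 with median centring). Il6 and Tnf, named after their values were seen, had differences of 0.01 and -0.03.

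Among 32 interferon and double-stranded RNA genes 3 rose and 0 fell (9.38%, against 1.05% of all genes), with a median of 0.11. Gbp2 (a guanylate-binding protein) rose by 0.62 ± 0.10, Cxcl10 by 0.60 ± 0.10 and Bst2 (tetherin) by 0.72 ± 0.10. Bst2 had ratios of -0.75 and -1.27 on the untreated and -0.17 and -0.40 on the endoglin siRNA arrays, below the control siRNA cells on every array and lowest in untreated cells. In Cy5 alone its difference was 0.46, made up of 0.002 for 1 animal and 0.92 for the pool. For 1 animal the control channel differed by -0.57 between the arrays. Among 15 genes of MHC class I presentation 0 passed; Tap2 (0.50 ± 0.12) and RT1-M3-1 (0.42 ± 0.09) had the largest values. None of 11 genes of the RNA interference machinery passed, of which Tnrc6b (0.31 ± 0.11) and Tarbp2 (0.13 ± 0.11) had the largest differences.

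Several surface and secreted proteins were among the highest differences. Tm4sf1, a 4-span membrane protein, had ratios of 0.11 and -0.02 on the untreated and 1.22 and 1.25 on the endoglin siRNA arrays, and rose by 1.19 ± 0.09 (2.28-fold, adjusted p = 0.00196, limma) with the sources almost equal. Gpc3, the heparan sulfate proteoglycan glypican-3, had ratios of 0.31 and -0.60 on the untreated and 1.51 and 0.55 on the endoglin siRNA arrays (difference 1.18 ± 0.09, second probe 0.90, or 1.82 with the ratios of Feature Extraction). Its level differed between the sources nearly as much as between the groups, and within each source the endoglin siRNA array was higher. Clu (clusterin, a secreted chaperone) had -0.33 and -0.58 on the untreated and 0.81 and 0.48 on the endoglin siRNA arrays (2.14-fold higher). Padi3, a peptidylarginine deiminase that converts arginine into citrulline, had -0.30 and -0.51 on the untreated and 0.92 and 0.60 on the endoglin siRNA arrays (difference 1.16 ± 0.09), and its relative Padi4, named after its value was seen, differed by 0.75 ± 0.09. Both genes stood below 0 in untreated and above 0 in endoglin siRNA cells. Slpi (a secreted protease inhibitor) rose by 0.93 ± 0.09, with a second probe at 0.89. In Cy5 alone its difference was 0.32 for 1 animal and 0.997 for the pool, and for 1 animal the control channel differed by -0.595 between the arrays.

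Ankrd1, a nuclear ankyrin repeat protein and known target of YAP, had ratios of -0.37 and -1.52 on the untreated and 0.29 and -0.15 on the endoglin siRNA arrays. The pooled untreated array was lowest by far, and the difference of 1.02 ± 0.15 was smaller in the single animals (0.66) than in the pools (1.37). Olr1454, an olfactory receptor gene, had -0.30 and -1.18 on the untreated and 0.41 and 0.05 on the endoglin siRNA arrays (difference 0.97 ± 0.13). Itga7 (integrin alpha-7, which binds laminin) rose by 0.66 ± 0.09, but its second probe gave 0.14. It and Gpc3 were the 2 genes that rose among 20 integrins, syndecans and glypicans (10%, against 1.05% of all genes), of which 0 fell.

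Vascular and growth signals went both ways. Of 28 angiogenic and vasoactive genes, 2 rose, Angpt2 (angiopoietin-2) and Edn1 (endothelin-1, a constrictor of stellate cells), and 2 fell, Rgs4 and Rgs5 (14.3%, against 1.05% of all genes). Angpt2 had ratios of -0.03 and -0.21 on the untreated and 0.92 and 0.33 on the endoglin siRNA arrays (difference 0.75 ± 0.11, or 1.52 with the ratios of Feature Extraction; second probe 0.23), and Edn1 -0.09 and -0.42 on the untreated and 0.56 and 0.10 on the endoglin siRNA arrays (difference 0.59 ± 0.09). Of 25 Wnt genes Rspo3 (R-spondin-3, an amplifier of Wnt signals) rose and Sfrp1 (a secreted Wnt inhibitor) fell (8%, against 1.05% of all genes). Rspo3 had 0.07 and 0.07 on the untreated and 0.84 and 0.77 on the endoglin siRNA arrays (difference 0.74 ± 0.09), and Sfrp1 -0.29 and -0.30 on the untreated and -1.30 and -0.78 on the endoglin siRNA arrays (difference -0.75 ± 0.13, or 0.15 with median centring). Of 12 genes of the insulin-like growth factor system 1 passed (8.33%, against 1.05% of all genes): Igf1 fell by 0.61 ± 0.10. Its other probes gave -0.08, -0.28 and -0.44 and the Cy5 channel -0.12, and in Cy3 it was 0.49 higher on both endoglin siRNA arrays.

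Few stress and growth genes passed in each list, but in some lists most members had 1 sign in both sources. Of 39 cell cycle genes 28 were higher and 1 lower in both, and of 16 p53 targets 10 and 0. Of 59 ribosomal protein genes 44 were lower and 1 higher in both. Of 28 glycolysis and hypoxia genes 16 and 1 were, and of 23 of cholesterol synthesis 16 and 0. The 21 stress genes were split, with 9 higher and 6 lower in both. These counts were not tested, and genes of a list are not independent. Ddit3 (CHOP, a factor of the stress response) was the 1 gene to pass among 21 stress genes (unfolded protein and integrated stress response), or 4.76%. It had ratios of -0.07 and -0.23 on the untreated and 0.74 and 0.58 on the endoglin siRNA arrays and rose by 0.81 ± 0.09. Of 16 p53 targets Btg2 (0.69 ± 0.12) and Fas (0.57 ± 0.10, second probe 0.38, Cy5 alone 0.88) rose. Of 27 immediate-early genes Dusp6 (a phosphatase of ERK, 0.77 ± 0.12), Btg2 and Klf6 (0.52 ± 0.09) did. None of either list fell, and the shares that passed were 12.5% and 11.1%, against 1.05% of all genes. Ccnd1 (cyclin D1, -0.52 ± 0.09) was the 1 of 39 cell cycle genes to pass (2.56%). It fell while the list's median was 0.21. Pkm (pyruvate kinase, -0.54 ± 0.09) was the 1 of 28 glycolysis and hypoxia genes to pass (3.57%). Tm7sf2 (a sterol reductase, -0.82 ± 0.12) was the 1 of 23 of cholesterol synthesis (4.35%). Mcoln1 (a lysosomal calcium channel, 0.55 ± 0.09) rose among the lysosomal genes, of which 8% passed. Beside 1.05% of all genes, 1 gene in so short a list does not set the list apart. With median centring Ccnd1 (0.53), Pkm (0.51) and Tm7sf2 (0.06) changed sign. None of 59 cytosolic ribosomal protein genes passed; their median was -0.13 (0.95 with median centring), and Rps12 (-0.41 ± 0.12) and Rps21 (-0.29 ± 0.09) had the largest values.

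Markers of other liver cells differed from list to list. Of 11 sinusoidal endothelial markers Oit3 rose and Erg fell (18.2%, against 1.05% of all genes). Oit3 had ratios of -0.19 and -0.43 on the untreated and 0.94 and 0.83 on the endoglin siRNA arrays (difference 1.19 ± 0.09), and Erg, an endothelial transcription factor, 0.47 and 0.58 on the untreated and -0.59 and -0.11 on the endoglin siRNA arrays (difference -0.87 ± 0.11, or -2.46 with the ratios of Feature Extraction). The defining endothelial genes Pecam1 and Cdh5 had differences of 0.09 and -0.02. The list's median difference was 0.05. The summed signal of the 11 markers in Cy5 was 6334 and 5848 in untreated and 10210 and 9231 in endoglin siRNA cells, and without Oit3 it was 4199 and 2668, and 6074 and 2678, so that the pools were then nearly equal. Of 8 bile duct markers Spp1 and Sox9 fell (25%, against 1.05% of all genes). Sox9 had ratios of -0.14 and 0.19 on the untreated and -1.66 and -0.53 on the endoglin siRNA arrays (difference -1.12 ± 0.16), and its other probes disagreed, at 0.04, -0.06 and -1.05. Among 13 hepatocyte, 12 portal fibroblast and mesothelial, and 8 lymphocyte and neutrophil markers 0 passed. The largest values were those of Cyp2e1 (0.43) and Ass1 (-0.33), Mfap4 (-0.63) and Msln (0.36), and Nkg7 (0.22) and Prf1 (-0.09). Without the disturbed spots Cyp2e1 rose (0.65, adjusted p = 0.0078, limma) and Mfap4 fell (-1.04, adjusted p = 0.000687, limma).

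The control siRNA RNA on every array shows where transfected cells without the endoglin siRNA lay. Its place between untreated cells (0) and endoglin siRNA cells (1) was computed for each gene from the mean ratios; a dye effect of a probe cancels in the difference but not in this place, and the 2 cannot be told apart. Of the 267 genes, the control lay near the untreated cells or beyond them (place under 0.25) for 147. It lay near the endoglin siRNA cells or beyond them (over 0.75) for 51, and between for 69. Over all genes tested these shares were 50%, 32.5% and 17.5%. The place divides by the difference on which the 267 genes were chosen, so these shares are not a like comparison. Among the 138 lower genes 42 had a control near the endoglin siRNA cells or beyond them, and among the 129 higher genes 9 did. Shares over all genes are not given by direction, so these counts do not set the lower genes apart from genes at large. Eng (-0.19), A2m (0.01), Ccn4 (-0.15), Cthrc1 (-0.05), Ltbp2 (0.12) and Hsp90ab1 (-0.24) were on the side of the untreated cells. All 7 macrophage markers that fell were on the side of the endoglin siRNA cells, such as Lyz2 (0.77), Cd68 (1.02) and C1qa (1.06), as were Coro1a (0.96), Ctss (1.13) and, among genes that rose, Ankrd1 (0.93) and Bst2 (1.40). Spp1 (0.71), Lox (0.33), Clu (0.41) and Slpi (0.40) lay between.

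**Figure D5:**
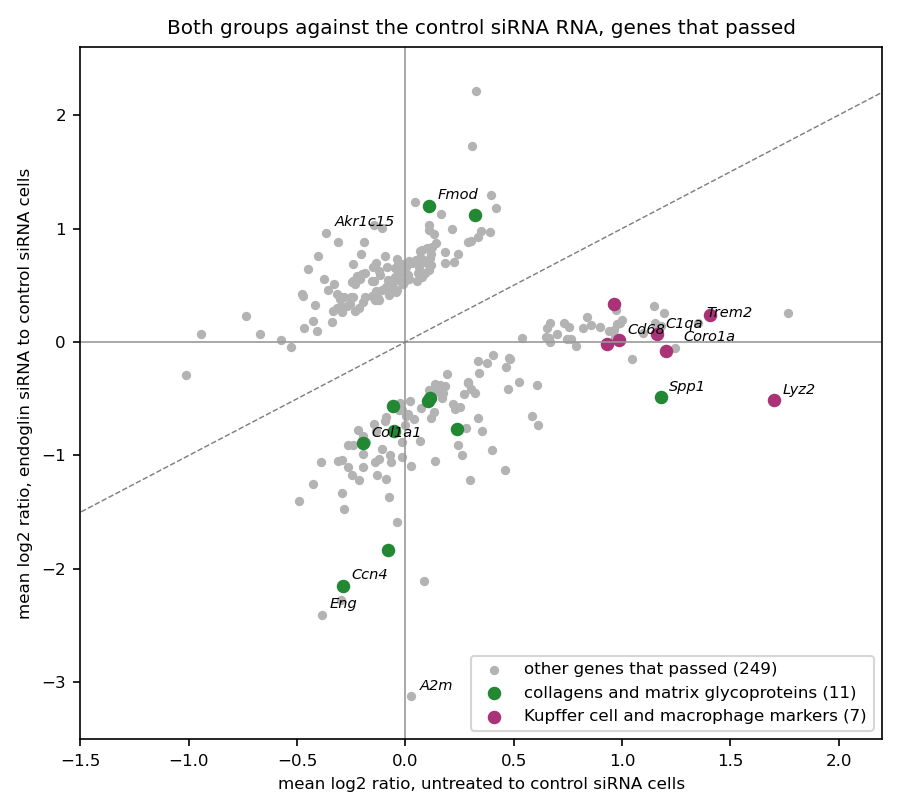
Mean log2 ratio to control siRNA cells in untreated (x axis) and endoglin siRNA cells (y axis) for the 267 genes that passed, with collagens and matrix glycoproteins in green and macrophage markers in purple; the dashed line marks equal ratios. Macrophage markers lie to the right near a y value of 0, and A2m, Eng and Ccn4 lie near an x value of 0 and far below.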

How the data were processed

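The authors extracted intensity values (mean and local background signals of Cy5 and Cy3, linear scale) with version 9.5.1.1 of Agilent's Feature Extraction per the file headers. The deposited log10 ratios are Cy5 over Cy3 per the file headers, and the deposited value table holds the same log10 ratios with the sign turned on both untreated arrays. For the values given here, signals were corrected with normexp (offset 50) and loess within arrays in limma 3.58.1 (R 4.3.3); spots with outlier flags were left out and spots of a probe averaged. Probes had to exceed background clearly (Feature Extraction's flag) in 1 channel or both on 2 or more arrays, as 30021 of 41012 did. The brightest probe stood for each gene. Names came from a RefSeq table (GRCr8; 6632 by accession, 3222 by symbol, 2264 by synonym, 13389 unmatched and named as in the file). Log2 ratios, computed from the deposited intensities, were fitted with group and RNA source (1 residual and 7.43 prior degrees of freedom). Arrays of the same RNA source deviated together (r = 0.293 over genes); the pairing comes from the labels' RNA source. Each SE is limma's moderated one. The procedure was tested on simulated data. Members and lists were chosen with earlier results of these data known; the 33 lists come from general knowledge.

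Named genes were Eng, the 12 highest and 12 lowest differences with a symbol that passed, and from each list up to 4 members that passed, or the 2 largest where none did; a few of these are not reported here. Promoter motifs and their gene groups were chosen after the values were seen. Alternatives were no background correction, normexp without spots over 100 units below background, Feature Extraction ratios, the deposited table (with the sign of both untreated arrays turned back), median centring, scaling between arrays, Cy5 alone, no filter or a stricter one (Cy5 well above background on all arrays), the mean of a gene's probes, no block, and leaving out each array or source.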

Additional observations from a re-analysis of the deposited data

How the results depend on the processing

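The count of 267 genes (129 higher, 138 lower) stayed within 1.5 times with no filter on dim probes (191), with the stricter filter (277) and with the mean of all probes (225). It rose to 919 (396 higher, 523 lower) with no background correction and to 917 (409 and 508) without the disturbed spots. It fell to 11 (4 and 7) in the Cy5 channel alone, and to 0 in each direction with the ratios of Feature Extraction, the deposited table (its untreated arrays turned back to Cy5 over Cy3), median centring or scaling between arrays; with the Feature Extraction ratios the prior degrees of freedom were 1.64 in place of 7.43. With no replicate block, that is without the pairing by RNA source, it was 22 (9 and 13), and 51 of the 63 named genes that had passed lost the call. Leaving out single arrays of that fit gave 0 to 429 genes (0 to 142 higher, 0 to 287 lower), with 0 without the pooled untreated array, 1 without the untreated array of 1 animal, 51 (15 higher, 36 lower) without the endoglin siRNA array of 1 animal and 429 without the pooled one; the remaining array of a group was assumed to vary like the other group. The 7 macrophage markers that fell became 12 with no background correction, 13 without the disturbed spots, 1 in Cy5 alone, 2 with no replicate block, 0 to 3 with an array left out and 0 in the other 4 settings named. The 9 matrix genes that fell became 1 with no replicate block, 0 in Cy5 alone and in the same 4 settings, and 0 to 11 with an array left out. Genes at least 2-fold apart in both sources numbered 24, but 64 with no background correction, 57 without the disturbed spots, 261 with the ratios of Feature Extraction or the deposited table, 41 with median centring and 5 with scaling. The difference of Eng was -2.14 (adjusted p = 0.423) with both of these ratios, -1.12 (0.764) with median centring, -3.21 (0.802) with scaling, -2.28 (0.0817) in Cy5 alone and -2.02 (0.179) with no replicate block, and -2.70 to -1.34 with an array left out, with lost calls at -1.99 and -2.05 (without the untreated array of 1 animal and of the pool; -2.73 and -1.31 in the single sources).

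Signs turned with median centring for Lox (0.0742), Col1a1 (0.41), Fn1 (0.55), Myh11 (0.20), Loxl1 (0.33), Cxcl12 (0.0397), Tm7sf2 (0.0568), Ccnd1 (0.53), Pkm (0.51), Rps12 (0.73), Rps21 (0.80), Igf1 (0.53) and Sfrp1 (0.15). They also turned without the endoglin siRNA array of 1 animal for Flnc (0.0232) and Ccl7 (-0.0178), without the pooled untreated array for Msln (-0.0621), and for Prf1 with the ratios of Feature Extraction and the deposited table (0.0285 and 0.0282). The cause of these changes was not tested. The number of arrays and the dim Cy3 channel, in which 61.9% to 87.2% of gene spots were well above background, limit every value.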

Other observations

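Other genes that passed lay outside every list and were chosen after their values were seen. Microfibril and matrix-associated genes were among those that fell: Mfap5 (a microfibril protein, -0.73 ± 0.11), Adamtsl2 (a binding partner of fibrillin and of latent TGF-beta carriers, -0.63 ± 0.09), Srpx2 (a secreted sushi-repeat protein, -0.82 ± 0.10) and Slit3 (a guidance ligand, -0.70 ± 0.12). Pcsk6, a proprotein convertase that activates growth factors, had log2 ratios of 0.16 and 0.54 on the untreated and -0.92 and -0.66 on the endoglin siRNA arrays, and Enpp1, an ectoenzyme that makes pyrophosphate, 0.00 and 0.14 on the untreated and -0.96 and -0.78 on the endoglin siRNA arrays. Runx1, a transcription factor of blood and mesenchymal cells, had -0.13 and -0.01 on the untreated and -1.17 and -0.82 on the endoglin siRNA arrays. On these genes the untreated arrays lay near or above 0 and both endoglin siRNA arrays well below it. With median centring, Enpp1 (0.03), Srpx2 (0.14), Adamtsl2 (0.42) and Slit3 (0.16) changed sign.

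Among the genes that rose were several secreted signals: Kitlg (stem cell factor, 0.60 ± 0.09), Gdf15 (a stress-induced member of the TGF-beta superfamily, 0.78 ± 0.12), Cxcl14 (a chemokine, 0.70 ± 0.09) and Npy (neuropeptide Y, 0.57 ± 0.09). Npy had ratios of 0.02 and 0.01 on the untreated and 0.59 and 0.59 on the endoglin siRNA arrays, nearly equal within each group. Il1rl1, the receptor of interleukin-33, had -0.40 and -2.93 on the untreated and 0.08 and -1.85 on the endoglin siRNA arrays; both pooled arrays lay far below both arrays of 1 animal, and the difference within sources was 0.78 ± 0.14. The highest difference of all genes that passed belonged to a probe whose entry, TC562296, matched no gene name (1.89 ± 0.11). TC541235 (-2.19 ± 0.15) and M84368 (-1.97 ± 0.18), among the lowest, had no match either.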
